A study of Mus musculus with 8 samples.

Results

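Interferon-stimulated genes are the genes that cells switch on when interferon signalling is active, and 32 of them are described here in leukaemic mouse bone marrow. They were picked by gene symbol from the known interferon response, and all 32 were found among the 47729 genes of the count table. For 30 of them the counts were high enough for a test, among 13462 genes tested in all. Only Ifit3 and Ifit3b, a pair of closely related antiviral genes, fell below that limit.

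The study asked what a knockdown of Fubp1, a nucleic acid binding protein best known as a regulator of Myc, does to gene expression in a mouse model of chronic myeloid leukaemia. Marrow of C57BL/6 mice given 5-fluorouracil was infected with an MSCV retrovirus that carried BCR-ABL1 and a red fluorescent protein. The same cells received a pLKO.1 lentivirus carrying Venus with either an shRNA against Fubp1 or a scrambled shRNA, and were transplanted into mice irradiated with 900 cGy. From mice that developed the disease, live marrow cells with both colours and no lineage markers were sorted into TRIzol. There were 4 mice with the Fubp1 shRNA (called the knockdown libraries) and 4 with the scrambled shRNA, and each library came from 1 mouse. Donor treatment, BCR-ABL1, viral infection and irradiation were therefore shared by all 8 libraries, and no sample without BCR-ABL1 or without virus entered the comparison. The sorted population still holds cells of several kinds, since it was selected by fluorescence and by the lack of lineage markers. The sources used here give neither the ages of the mice nor the shRNA sequence.

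Interferons are cytokines of antiviral defence. Type I interferons bind a receptor of the chains Ifnar1 and Ifnar2, whose kinases Jak1 and Tyk2 phosphorylate Stat2. Stat2 joins Irf9 in a complex that binds interferon-stimulated response elements in DNA. Interferon gamma uses Ifngr1 and Ifngr2 with Jak1 and Jak2, and acts through gamma-activated sites. Interferon acts on blood stem cells as well as on infected cells, and interferon alpha has long been used to treat chronic myeloid leukaemia.

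The promoters of 3 members show what such elements look like in the genes the results turn on. Windows of 300 bases around RefSeq start sites of GRCm38.p6, from 250 bases before to 50 after, were found for 22 of the 32 members. Each was searched on both strands for GAAANNGAA, the core letters of the interferon-stimulated response element, and for TTCNNNGAA, the letters of the gamma-activated site. In Ifit1 (chr19:34640739-34640888, plus strand) and Isg15 (chr4:156200819-156200968, minus strand) the capitals mark the response element letters. Ifit1 carries them on the opposite strand, so that they read as their reverse complement, and 2 of its 3 matches overlap. In Isg15 all 3 matches overlap in 1 run. Ifit2, the only member whose expression passed the test below, has 2 windows (chr19:34550544-34550693 and chr19:34550938-34551087, plus strand), which hold no match and so no capitals in the 150 bases shown. In the GENCODE annotation Ifit2 runs from 34550694 to 34576419, so both windows lie at its upstream end. Any start site further along the gene was not searched, and which start site these cells use was not measured. All sequences end 1 base before the start site.
Ifit1: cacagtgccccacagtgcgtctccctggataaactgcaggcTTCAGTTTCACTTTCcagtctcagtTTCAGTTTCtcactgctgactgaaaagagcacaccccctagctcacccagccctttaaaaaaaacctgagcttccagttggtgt
Isg15: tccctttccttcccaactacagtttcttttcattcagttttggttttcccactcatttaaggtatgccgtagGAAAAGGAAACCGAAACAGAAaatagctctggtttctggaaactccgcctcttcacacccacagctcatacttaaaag
Ifit2 upstream start: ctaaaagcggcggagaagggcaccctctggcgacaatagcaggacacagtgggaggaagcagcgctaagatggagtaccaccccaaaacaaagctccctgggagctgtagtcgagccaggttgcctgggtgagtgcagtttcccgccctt
Ifit2 downstream start: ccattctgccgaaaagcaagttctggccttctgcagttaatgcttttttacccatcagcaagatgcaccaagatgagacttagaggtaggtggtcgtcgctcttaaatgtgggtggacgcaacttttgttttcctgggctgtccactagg

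The response element letters were present in 13 of the 22 members with a window (59.1%), against 9.76% of 27025 genes and 8.56% of 32851 windows in the table. The gamma-activated site letters were found in 5 of the 22 members (22.7%), against 9.55% of genes and 8.30% of windows. Ifit3 and Ifit3b, next to Ifit2 on chromosome 19, held 3 response element matches each, as Ifit1 and Isg15 did. Irf1 held the gamma-activated site letters and not the response element letters. Ifit2 held gamma-activated site letters once, starting 241 bases before its upstream start site and so outside the stretch printed. A match is a run of letters and not a measured binding site.

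Total counts per library ran from 22465303 in scrambled library 4 to 44761356 in knockdown library 4. Levels are given as CPM, the counts of a gene relative to the total of its library after scaling for library composition. They are not corrected for gene length and are compared only between libraries. Fubp1 itself was at 296.1, 284, 291 and 396 CPM in scrambled libraries 1 to 4 and at 281, 228, 220.4 and 239 CPM in knockdown libraries 1 to 4. No knockdown library reached the lowest scrambled one, and the knockdown mean was 76.5% of the scrambled mean. The log2 fold change was -0.39 ± 0.12 (SE, n = 4 against 4). It missed the threshold in edgeR's quasi-likelihood test (Benjamini-Hochberg adjusted p = 0.0604), and the exact two-sided permutation test over 70 regroupings gave 0.0286, the smallest p it can give. DESeq2 put Fubp1 past the threshold (-0.39, adjusted p = 0.0145), as did edgeR with no filter on low counts (-0.41, adjusted p = 0.0365). In the authors' deposited table its log2 fold change was -0.38 with an adjusted p of 0.0157.

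Almost no interferon-stimulated gene was called changed in the knockdown, and the average level of the members differed more between mice of the scrambled group than between the groups. Of the 30 tested members 1 was higher in the knockdown and 0 were lower, at an adjusted p under 0.05 by edgeR. Over all tested genes, 8.02% were called higher and 7.29% lower. Only 1 of the 30 members had an unadjusted p under 0.05 by edgeR, against 4508 of the 13462 tested genes. The members also varied more between mice than most genes. Their median SD of log2 CPM was 1.12 in the scrambled and 0.34 in the knockdown group, against 0.16 and 0.19 over all tested genes. A change of a given size was therefore harder to call in them, and few calls do not show that they changed less. The fitted log2 fold change was above 0 in 11 members and below 0 in 19, with a median of -0.075 against 0.001 over all tested genes. Of all tested genes 6752 were fitted above 0 and 6710 below. Groups did not overlap, with all knockdown libraries above all scrambled ones, in 1 member and in 9.54% of all genes. Lack of overlap in the other direction was seen in 0 members and in 11.1% of all genes. In sorted bulk cells, fewer cells that express a gene and less RNA per cell cannot be told apart.

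**Figure D1:**
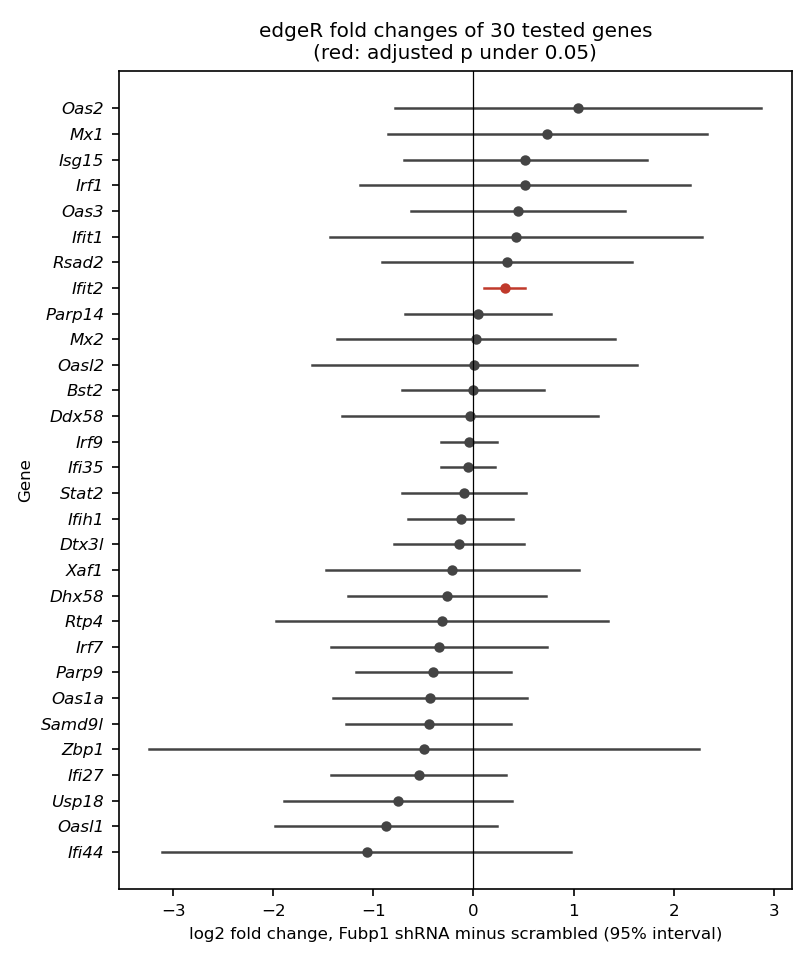
edgeR log2 fold change (x axis, knockdown minus scrambled) with its 95% interval for each of the 30 tested interferon-stimulated genes (y axis), in order of fold change. The interval of Ifit2 (red, 0.11 to 0.52) lies above 0 and all 29 others span 0.

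Ifit2, which codes for an RNA-binding protein that restrains viral translation, was the member that rose. Its CPM was 19.0, 16.3, 15.8 and 18.3 in scrambled libraries 1 to 4 and 22.9, 20.8, 21.2 and 21.4 in knockdown libraries 1 to 4. Every knockdown library was above every scrambled one, and the means were 17.4 ± 1.56 and 21.6 ± 0.898 CPM (SD, n = 4 each). The increase was 1.24-fold, a log2 fold change of 0.31 ± 0.09 (SE) with an adjusted p of 0.0483 by edgeR. The call was lost when any 1 of the 8 libraries was left out, with log2 fold changes of 0.26 to 0.35 and adjusted p values of 0.0530 to 0.134. DESeq2 kept it (0.31, adjusted p = 0.0102), and the adjusted p ran from 0.0102 to 0.155 over the 15 alternatives. The authors' deposited table gave 0.30 with an adjusted p of 0.0110, while no other member with a value there had an adjusted p below 0.267.

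The relatives of Ifit2 lie beside it in a cluster on chromosome 19 (GRCm38 34550694 to 34650009, GENCODE annotation) and were much less even. Ifit1, which binds viral RNA that lacks the cap methylation of host messages, was at 3.14, 2.62, 8.96 and 0.315 CPM in the scrambled libraries and 10.3, 2.81, 3.74 and 3.57 CPM in the knockdown libraries, each in the order 1 to 4. Scrambled library 4 was lowest, scrambled library 3 and knockdown library 1 were highest, and the groups overlapped. Its log2 fold change was 0.43 ± 0.81 (SE), with a 95% interval of -1.44 to 2.29. For Ifit3, an adaptor that partners Ifit1, the raw counts were 6, 6, 8 and 8 in the scrambled and 26, 3, 4 and 8 in the knockdown libraries. Ifit3b had 4, 0, 0 and 0 counts in the scrambled and 8, 0, 1 and 1 in the knockdown libraries. Knockdown library 1 held the most reads of both genes. A level of 3 counts, below which a gene is at the limit of detection, corresponded to 0.0653 to 0.135 CPM, and a difference between the groups was not detectable for either gene at this depth. Of the 50-base windows of Ifit3 transcripts 51.2% also occur in Ifit3b, so that counts of this pair may have been split or dropped in the authors' counting.

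Among the sensors of foreign nucleic acid, 4 of 4 had fitted fold changes below 0 and 0 passed the test. Ifih1 and Ddx58, the RNA helicases MDA5 and RIG-I, ranged over 40.3 to 94.6 and 3.82 to 40.5 CPM in the scrambled libraries. Their knockdown libraries covered 53.7 to 71.8 and 16.6 to 25.5 CPM, inside the scrambled range in both genes. Dhx58, the related helicase LGP2, covered 9.76 to 52.0 CPM in the scrambled and 22.2 to 37.2 CPM in the knockdown libraries. Zbp1, a sensor of left-handed nucleic acid that can start cell death, had no count in scrambled library 4, was at 6.47 CPM in scrambled library 3 and at 0.628 to 2.06 CPM in the knockdown libraries. In all 4 sensors the lowest library was scrambled 4 and the highest scrambled 3. Log2 fold changes ran from -0.50 (Zbp1, SE 1.19) to -0.04 (Ddx58, SE 0.56).

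The transcription factors carry the response, and none of the 4 passed the test. Stat2, a signal transducer of the type I response, was at 41.9, 45.6, 74.2 and 28.1 CPM in the scrambled and 49.9, 35.2, 47.8 and 45.1 CPM in the knockdown libraries. The knockdown values fell between the scrambled extremes, with a log2 fold change of -0.095 ± 0.27 (SE; 95% interval -0.71 to 0.52). Irf9, the DNA-binding subunit that joins Stat2, was the steadiest of the 4. It was at 110.2, 119, 134 and 87.1 CPM in the scrambled and 119, 97.7, 109 and 112 CPM in the knockdown libraries. Scrambled libraries 3 and 4 were again the extremes, within a narrower range. Its log2 fold change was -0.04 ± 0.12 (SE), with a 95% interval of -0.32 to 0.24.

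Irf7, the factor that amplifies the type I response and is itself induced by interferon, spread far more. It was at 61.8, 67.7, 113.9 and 17.7 CPM in the scrambled and 62.5, 40.1, 63.2 and 40.6 CPM in the knockdown libraries. Scrambled library 3 was highest and scrambled library 4 lowest, and the knockdown libraries formed 2 pairs between them. The log2 fold change of -0.34 ± 0.47 (SE) was smaller than the spread, with a 95% interval of -1.42 to 0.73. Irf1, a factor induced most strongly by interferon gamma, covered 4.09 to 56.9 CPM in the scrambled and 18.6 to 49.9 CPM in the knockdown libraries. It differed from most members in that knockdown library 2, not 1, was the highest of its group. The summed CPM of 10 immediate early genes, which respond within minutes to stimuli and to handling, was 3589, 6784, 7152 and 2536 in knockdown libraries 1 to 4, higher in 2 and 3 as Irf1 was (18.6, 49.9, 33.0 and 23.4 CPM). In the scrambled libraries the sum was 4548, 3501, 2150 and 2809, lowest in library 3, where Irf1 was highest. The part of such early genes in the Irf1 values was not tested.

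Isg15 codes for a ubiquitin-like protein that is conjugated to other proteins after interferon, and Usp18 for the protease that removes it and that also damps the type I receptor. Isg15 was at 31.4, 24.4, 49.0 and 7.96 CPM in the scrambled and 67.3, 25.7, 44.2 and 25.2 CPM in the knockdown libraries. Knockdown library 1 was the highest of the 8 and scrambled library 4 the lowest. Usp18 was at 19.2, 31.3, 50.8 and 8.14 CPM in the scrambled and 22.5, 12.5, 12.6 and 17.4 CPM in the knockdown libraries. Its highest library was scrambled 3, and the lowest was again scrambled 4. The fitted changes had opposite signs, 0.52 ± 0.53 (SE) for Isg15 and -0.76 ± 0.49 (SE) for Usp18. Neither passed the test (adjusted p = 0.537 and 0.326 by edgeR), and the difference between these 2 genes was not tested.

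**Figure D2:**
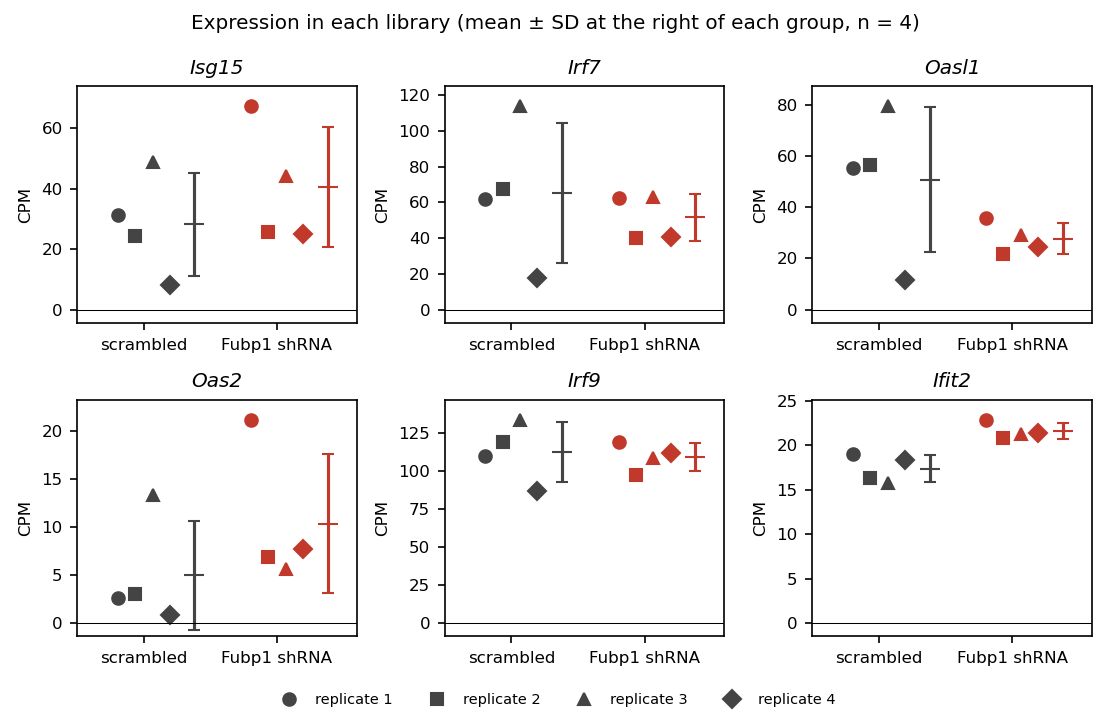
CPM (y axis, linear) of 6 interferon-stimulated genes in each scrambled (grey) and knockdown (red) library, with mean ± SD (n = 4) beside each group. Scrambled library 3 (triangle) and 4 (diamond) are the extremes of the scrambled group in Isg15, Irf7, Oasl1, Oas2 and Irf9, and the groups separate only in Ifit2.

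The OAS family makes the second messenger that activates RNase L, an enzyme that cuts viral and cellular RNA. None of the 5 members measured passed the test, and 3 were fitted above 0 and 2 below. Oas2 had the largest fitted increase of all 30 members, 1.04 ± 0.80 (SE) on the log2 scale. It was at 2.64, 3.05, 13.3 and 0.854 CPM in the scrambled and 21.1, 6.87, 5.65 and 7.64 CPM in the knockdown libraries. Scrambled library 3 exceeded 3 of the 4 knockdown libraries, so the groups overlapped. Oasl1, a relative without enzyme activity that limits Irf7 translation in mice, had a fitted change of -0.875 ± 0.48 (SE). It was at 55.5, 56.4, 79.5 and 11.6 CPM in the scrambled and 35.8, 21.8, 29.2 and 24.3 CPM in the knockdown libraries. Here scrambled libraries 1 to 3 lay above every knockdown library and scrambled library 4 below every one. Oas2 and Oasl1 were picked out for these per-library values after they were seen. Oas1a, Oas3 and Oasl2 had log2 fold changes of -0.435, 0.44 and 0.01, and Oas1a shares 57.6% of its 50-base windows with Oas1g, so reads of these copies could have been split.

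The Mx GTPases, which trap viral nucleoproteins, were rare in all libraries. Mx1 was at 0.0899 to 1.40 CPM in the scrambled and 0.476 to 2.22 CPM in the knockdown libraries, and Mx2 at 0.225 to 2.16 and 0.727 to 2.42 CPM. In both, knockdown library 1 was highest and scrambled library 4 lowest, and log2 fold changes of 0.74 ± 0.70 and 0.02 ± 0.61 (SE) did not pass. Parp9 and Dtx3l, which form a complex of an ADP-ribosyl transferase and a ubiquitin ligase, and Parp14 had log2 fold changes between -0.40 and 0.05, and 0 of the 3 passed. Scrambled library 3 was 2.73 to 3.85 times scrambled library 4 in these genes. Parp9 and Dtx3l overlap on opposite strands over 458 exon bases, 9.4% and 8.0% of their exons, and the sources used here do not give the strand setting of the counting.

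Of the 8 remaining effectors 0 passed the test, with 7 fitted below 0. They are Bst2 (tetherin, which holds virus particles at the cell surface), Rsad2 (viperin, which makes a chain-terminating nucleotide), Ifi27, Ifi35, Ifi44, Rtp4, Xaf1 and Samd9l. Bst2 counts among the 7 but hardly differed, with means of 75.2 CPM in the scrambled and 75.4 CPM in the knockdown group. Ifi27 was at 80.8, 63.7, 90.6 and 21.4 CPM in the scrambled and 46.9, 45.3, 48.0 and 35.6 CPM in the knockdown libraries. As with Oasl1, scrambled library 4 alone lay below the knockdown libraries, and this gene too was picked out after its values were seen. Parp9 and Samd9l had the same arrangement. Parp9 was at 36.5 CPM in scrambled library 4 and 58.9 to 74.5 CPM in the knockdown libraries, and Samd9l at 17.3 and 28.4 to 40.8 CPM. Rsad2 covered 12.4 to 67.0 CPM in the scrambled and 31.4 to 109 CPM in the knockdown libraries, with knockdown library 1 the highest of the 8. Ifi35 was even, at 43.6 to 57.1 and 39.7 to 56.4 CPM, and was the only tested member whose lowest library belonged to the knockdown group. Of Ifi35 exons 16.8% overlap an antisense gene, and 13.9% of Rtp4 exons overlap another transcript, so their reads could include those of neighbours. Log2 fold changes of the 8 lay between -1.07 (Ifi44, SE 0.89, at most 3.32 CPM) and 0.33 (Rsad2, SE 0.54).

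What the members shared was their order across the mice. Within the scrambled group, library 3 was the highest and library 4 the lowest in 29 of the 30 tested members, with Ifit2 the exception. The same order held in 13.04% of all tested genes. Over all 8 libraries, scrambled library 4 was the lowest in 28 members (15.8% of all genes) and scrambled library 3 the highest in 22 (10.3%). Both held in 21 members and in 1.81% of all genes. These 2 libraries were singled out after the values were seen, and the counts carry no test.

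**Figure D3:**
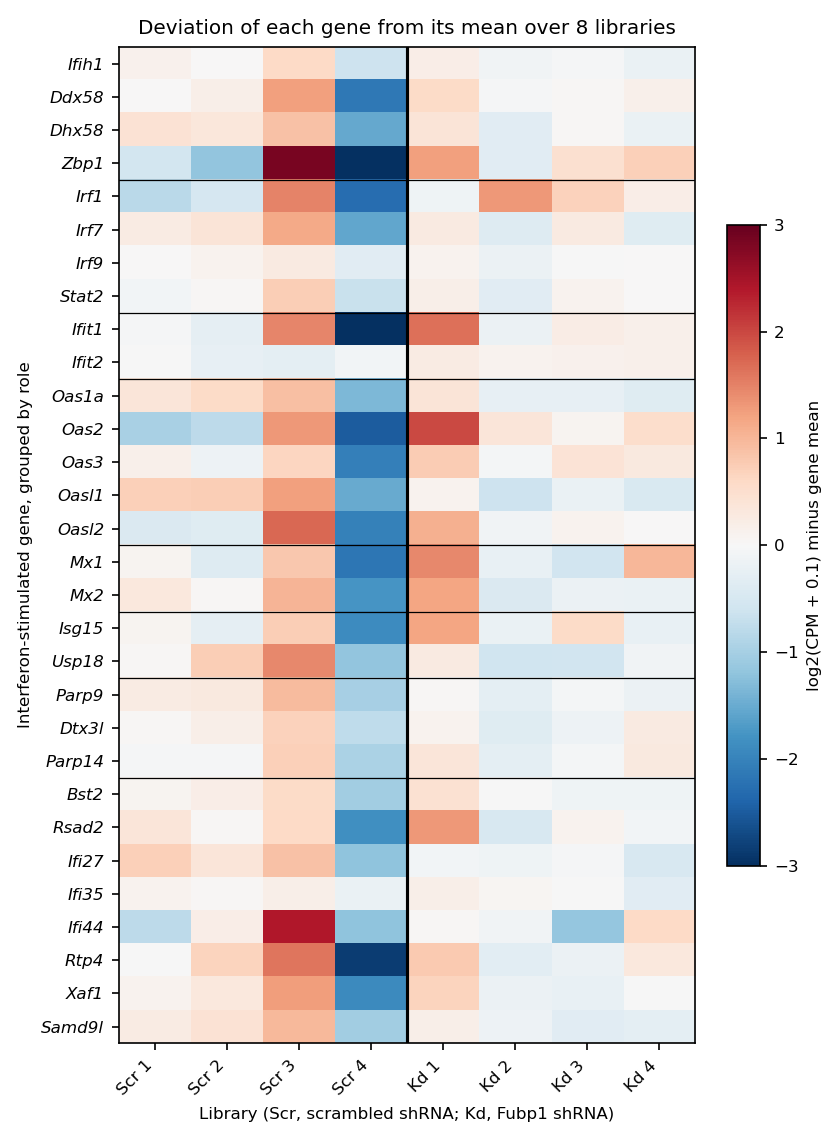
Deviation of each of the 30 tested genes (rows, grouped by role) from its own mean over the 8 libraries (columns; Scr, scrambled; Kd, knockdown), in log2(CPM + 0.1); red is above and blue below the mean. The columns of scrambled library 3 and 4 stand out as red and blue in nearly every row, while Ifit2, Irf9 and Ifi35 stay pale throughout.

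The gap between these 2 libraries was large. The ratio of scrambled library 3 to 4 had a median of 6.16 in 29 members with counts in both, against 1.00 over all genes. It ran from 0.859 in Ifit2 to 28.5 in Ifit1, the latter resting on 7 counts in scrambled library 4. A ratio of 4 or more was reached in 21 of 30 members, as in 2.19% of all genes. The average log2 level of the 30 members, centred on each gene's mean, was 0.03, 0.06, 1.05 and -1.57 in scrambled libraries 1 to 4 and 0.58, -0.16, -0.03 and 0.04 in knockdown libraries 1 to 4. The group means of this level were -0.11 ± 1.08 and 0.11 ± 0.33 (SD, n = 4 each), so the knockdown libraries lay close together between the 2 scrambled extremes. The SD of log2 CPM was larger in the scrambled than in the knockdown group in 29 of 30 members, the exception being Ifi35, and in 36.1% of all genes. Its median over the members was 1.12 in the scrambled and 0.34 in the knockdown group, against 0.16 and 0.19 over all genes. By role, the level in scrambled library 4 was lowest for the Mx GTPases (-2.15) and the sensors (-2.015) and nearest to 0 for the 3 genes of the Parp9, Dtx3l and Parp14 group (-0.90). Mx1 and Mx2 had only 2 and 5 counts in that library.

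Knockdown library 1 was the highest of its group in 25 of 30 members and in 18.7% of all genes, and the highest of all 8 in 8 members, among them Isg15, Rsad2, Ifit1, Oas2 and Oas3. It had 24042761 counts, close to the 22465303 of scrambled library 4, which was lowest in most members. Scrambled library 4 also held the highest Fubp1 level of the 8 libraries (396 CPM). Knockdown library 1, high in most members, held the highest Fubp1 level of the knockdown group (281 CPM). Whether depth or Fubp1 level has a part in the order of the members was not tested.

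The direction of the group comparison depended on these libraries. Without scrambled library 4 the median log2 fold change of the members was -0.335, and 2 members were called lower by edgeR, Oasl1 (-1.22, adjusted p = 0.0148) and Ifi27 (-0.85, adjusted p = 0.0153). In that fit 7.71% of 13847 genes were called lower and 5.71% higher, with 0 members called higher. Without scrambled library 3 the median was 0.285, and 0 members were called in either direction. Parp9 and Samd9l were not called with any 1 library left out, with lowest adjusted p values of 0.0519 and 0.0526 by edgeR. Usp18, at -0.76 with all libraries, was at -1.08 without scrambled library 4 (adjusted p = 0.0863) and at -0.285 without scrambled library 3. Oas2 went from 1.04 to 2.21 without scrambled library 3 (adjusted p = 0.0781). In the authors' deposited table, made from all 8 libraries, Oasl1 and Ifi27 had adjusted p values of 0.267 and 0.412.

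**Figure D4:**
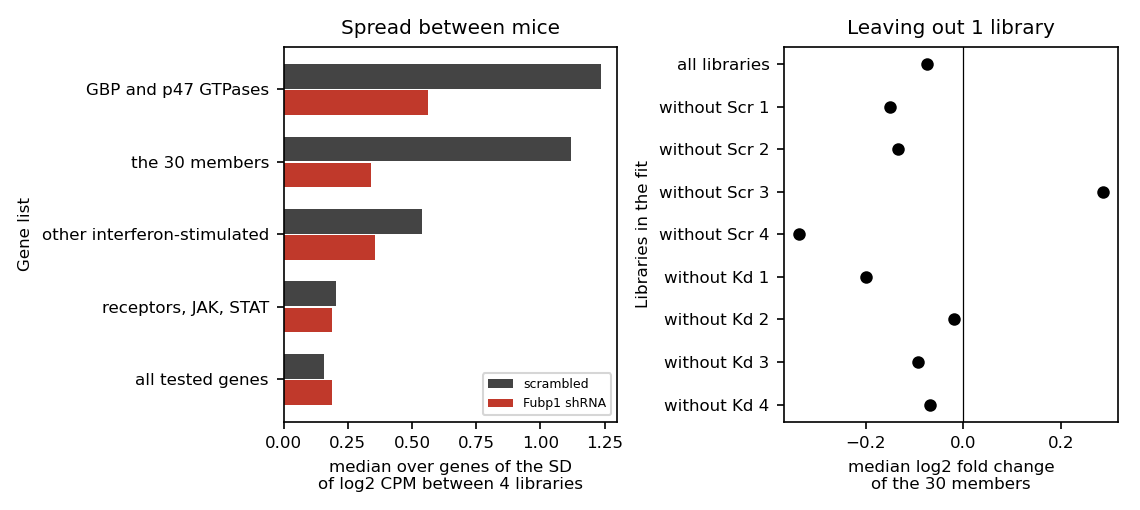
Left, median over genes of the SD of log2 CPM between the 4 libraries of each group (x axis), for 4 gene lists and all tested genes. Right, median log2 fold change of the 30 members (x axis) with all libraries (-0.075) and with each library left out, which is furthest below 0 without scrambled library 4 (-0.335) and above 0 only without scrambled library 3 (0.285).

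Transcripts of the interferons themselves were nearly absent. None of 19 ligand genes, from Ifnb1 and the alpha family to Ifng and the lambda genes, passed the filter on low counts. In 13 of them no read was counted in any library, and the others together had 16 counts in all 8 libraries, with at most 4 in 1 library. For a gene with a count of 0, the limit of 3 counts allows up to 0.0653 to 0.135 CPM, for counting error only. Cells outside the sort, which could make interferon, were not measured.

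Other parts of the pathway were taken from 7 lists of 159 genes, 103 of which were tested. Among them 8 rose and 3 fell, against the 8.02% and 7.29% of all genes given above. The median log2 fold change was 0.025. The receptor chains of type I interferon showed little difference, with Ifnar1 at 0.09 ± 0.12 and Ifnar2 at -0.03 ± 0.11 (SE). Ifngr1, the ligand-binding chain for interferon gamma, was at -0.19 ± 0.23, Il10rb at 0.11 ± 0.16 and Ifnlr1, at most 0.523 CPM, at -0.65 ± 0.58. Ifngr2, the signalling chain for interferon gamma, rose from 16.7, 16.2, 18.2 and 13.2 CPM in the scrambled to 19.3, 22.5, 23.3 and 23.5 CPM in the knockdown libraries. The groups did not overlap, and the log2 fold change was 0.46 ± 0.12 (SE, adjusted p = 0.0343 by edgeR).

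Of the receptor kinases none passed: Jak1 was at -0.25 ± 0.10 (adjusted p = 0.109), Jak2 at -0.36 ± 0.12 (adjusted p = 0.0735) and Tyk2 at -0.055 ± 0.09 by edgeR. Stat3, which serves other cytokines more than interferon, rose from 37.1 to 52.2 CPM in the scrambled to 49.1 to 85.2 CPM in the knockdown libraries (0.68 ± 0.19, SE; adjusted p = 0.0440), with the groups overlapping.

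Among the genes that link sensors to interferon production, 2 of 13 tested rose. Mavs, the mitochondrial adaptor of Ddx58 and Ifih1, went from 46.98 to 57.7 CPM in the scrambled to 60.0 to 99.2 CPM in the knockdown libraries (0.63 ± 0.14, SE). Mb21d1, the DNA sensor cGAS, went from 18.0 to 31.4 to 36.9 to 48.0 CPM (0.74 ± 0.19, SE). Neither gene overlapped between the groups. Of 16 tested negative regulators 2 rose and 1 fell. Socs3, an inhibitor of Jak kinases that is best known downstream of Stat3 and Stat5, was at 6.66, 6.65, 5.43 and 7.15 CPM in the scrambled and 13.98, 15.2, 20.0 and 19.2 CPM in the knockdown libraries. This was the clearest increase in the lists (1.40 ± 0.15, SE; adjusted p = 0.00274), and its groups stayed far apart. Sh2b3, an adaptor that restrains Jak2, rose by 0.27 ± 0.06 (SE), and Rnaseh2c, a subunit of the enzyme that removes RNA from DNA, fell by 0.32 ± 0.08 on the log2 scale (SE).

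The guanylate-binding proteins and p47 GTPases, which attack vacuoles of intracellular microbes and are induced chiefly by interferon gamma, had 12 tested genes. Only Gbp8 passed, and it fell. It was at 1.86, 2.28, 2.39 and 2.65 CPM in the scrambled and 0.201, 0.165, 0.444 and 0.392 CPM in the knockdown libraries, with -2.89 ± 0.34 (SE) on the log2 scale and an adjusted p of 0.00293 by edgeR. Its 4 scrambled libraries were close to each other, with library 4 the highest, unlike the order seen in the members. The rest of this list followed that order. Scrambled library 4 was the lowest of 8 in 10 of the 12 and library 3 the highest in 9, with a median ratio of 8.16 between them. Of 39 other tested interferon-stimulated genes 1 rose, Ifi30 (a lysosomal thiol reductase, 0.285 ± 0.08), and 1 fell, Apobec3 (a cytidine deaminase that restricts retroviruses, -0.315 ± 0.09). The median ratio of scrambled library 3 to 4 was 2.47 in this list. Dtx4, a Deltex ubiquitin ligase listed as a relative of Dtx3l, rose from 1.61 to 2.96 CPM in the scrambled to 7.17 to 31.4 CPM in the knockdown libraries (2.95 ± 0.48, SE; adjusted p = 0.0106 by edgeR).

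Of these 11 calls, Socs3 and Gbp8 kept theirs in all 15 alternatives and Dtx4 in 14. The other 8 lost theirs in 4 to 11 of the 15. The number called was 3 without scrambled library 1, 2 or 3, 12 without scrambled library 4, 4 to 6 without knockdown library 1, 2 or 4, and 24 without knockdown library 3.

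Markers of other cell types were summed in CPM to show what else moved with the libraries. Erythroid genes (9 of 9 tested) summed to 6867 to 7785 in the scrambled and 5442 to 8057 in the knockdown libraries, so erythroid transcripts were abundant in these lineage-negative cells. By edgeR 2 of the 9 rose, Hbb-bs and Alas2 (log2 fold changes 1.63 and 1.41), and 4 fell, Gata1, Klf1, Epor and Car2 (-0.35, -0.46, -0.42 and -0.71). The 6 progenitor genes summed to 509, 625, 753 and 441 in scrambled libraries 1 to 4 and to 356 to 524 in knockdown libraries. In the scrambled group the sum was highest in library 3 and lowest in 4, as in the members. Only 3 of the 6 genes had that order themselves. Ly6a, 1 of the 6, is itself interferon-stimulated. The 5 early granulocyte genes summed to 35.4, 164, 330 and 83.3 in scrambled and 1963, 940, 85.8 and 3583 in knockdown libraries 1 to 4. Monocyte and macrophage genes summed to 4.50 to 13.1 and 10.1 to 137, with 5 of 10 under 1 CPM in every library (the complement genes C1qa, C1qb and C1qc, Mertk and Vcam1). Neutrophil genes summed to 1.26 to 6.60 and 0.666 to 23.0, with scrambled library 3 again highest and 4 lowest of their group. Of the 3 tested neutrophil genes 2 had that order. The part of these cell types in the order of the members was not tested.

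Plasmacytoid dendritic cells are the main makers of type I interferon. Their 6 genes summed to 40.1 to 43.9 CPM in the scrambled and 37.6 to 43.2 CPM in the knockdown libraries, nearly all from Tcf4, and Siglech, Ccr9, Klk1 and Ly6d stayed under 1 CPM in every library. Conventional dendritic cell genes summed to 58.3 to 78.1 and 33.4 to 53.2, with 4 of 6 under 1 CPM throughout. The lower sums came from Zbtb46, at 57.8 to 75.9 CPM in the scrambled and 27.7 to 37.3 CPM in the knockdown libraries. It was called lower by edgeR (log2 fold change -1.06, adjusted p = 0.00282). Flt3 went the other way, at most 1.85 CPM in the scrambled and 0.159 to 24.5 CPM in the knockdown libraries. It was not called (2.99, adjusted p = 0.200 by edgeR). For T and NK cells 7 of 8 genes were under 1 CPM in every library and Cd3e had no count, with sums of 1.83 to 8.18 and 2.06 to 86.8. Nearly all of these sums came from Nkg7, at most 8.103 CPM in the scrambled and 86.62 CPM in the knockdown libraries. Nkg7 was not called (2.92, adjusted p = 0.0824 by edgeR). Within each group Nkg7 ranked the libraries in the same order as the early granulocyte sum did. Of the pathway genes called, Stat3, Mb21d1 and Dtx4 also had that order in the knockdown group, and the others did not. In the scrambled group Dtx4 had it, and Stat3 and Mb21d1 did not. The part of early granulocyte cells in these calls was not tested. For B cells 5 of 6 were under 1 CPM and Ms4a1 had no count, with sums of 0.135 to 1.01, highest in scrambled library 3 and lowest in 4, and of 0.508 to 3.91. The sum in scrambled library 4 was no higher than the limit of 3 counts in that library (0.135 CPM). Cd79b, the only B cell gene tested, had another order in the scrambled group, highest in library 2 (0.616 CPM) and lowest in library 1 (0.0555 CPM).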

How the data were processed

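RNA sequencing of 8 libraries (500 ng RNA each, stranded total RNA kits with ribosomal RNA depletion) was used. The labels name 2 depletion kits and not which library had which. The authors deposited raw read counts per gene, 1 column per library. The same deposited table holds the authors' mean normalized signal, log2 fold changes, p-values and test scores, from DESeq2 1.18.1 per the submitters' processing notes. CASAVA 1.8 is named there too. The sources used here do not give the aligner, the counting program, its strand setting or the genome build.

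Counts were tested with edgeR 4.0.16 (R 4.3.3), with filterByExpr by group, TMM factors, a robust quasi-likelihood F test and Benjamini-Hochberg adjustment over 13462 genes, called at 0.05. CPM used TMM-scaled library sizes, and SDs of log2 CPM a prior count of 2. Alternatives were DESeq2 1.42.0, limma-voom (limma 3.58.1), other scaling and filters, a replicate block, and leaving out each library. Positions come from GENCODE on GRCm38 and promoters from RefSeq on GRCm38.p6.

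The members, lists and tests were chosen with earlier results of these data known. Members called, not overlapping, or at the core of the pathway were named with every value, and pathway genes where called or part of a receptor or its kinases. Results that need withheld items are not reported here.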

Additional observations from a re-analysis of the deposited data

Results flagged for a closer look

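In 3 of the 62 groups of 4 libraries examined, 30 tested members and Fubp1 in each group, 1 library stood far from the other 3 on the log2 scale. Chance gives about 1 such group in 20. Oas1a was at 29.0 CPM in knockdown library 1, against 17.2 to 18.8 CPM in the other knockdown libraries. Mx2 was at 2.42 CPM in the same library, against 0.727 to 0.889 CPM in the others. Fubp1 was at 395.9 CPM in scrambled library 4, against 284 to 296 CPM in the other scrambled libraries.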

How the results depend on the processing

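Fubp1 passed the threshold with DESeq2 (-0.391) and without the filter on low counts (-0.411), and missed it in the other 13 alternatives. Leaving out 1 library moved it between -0.462 and -0.279. The 1 member called higher became 0 with no low count filter and 0 with each library left out, and 2 members were called lower without scrambled replicate 4, against 0 without each other library. The median log2 fold change of the members ranged from -0.335 to 0.285 with 1 library left out. The 11 pathway genes called numbered 22 by DESeq2, 6 without the filter on low counts, and 3 to 24 with 1 library left out. With 1 library left out, the calls over all genes ranged from 526 without scrambled replicate 2 to 3425 without knockdown replicate 3, against 2062 with all libraries, and DESeq2 called 3588. The cause of these shifts was not tested. Shallow counts limit Ifit3, Ifit3b and the interferon ligand genes, for which no difference was detectable.

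The replicate numbers did not pair the libraries: deviations of libraries with the same number correlated at -0.42, 0.022, -0.558 and -0.22. With the replicate number as a block, 0 members were called higher, 3 pathway genes and 400 genes overall were called, the median of the members was 0.094, and Fubp1 was at -0.38.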

Other observations

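Genes low in scrambled library 4 and high in library 3 were looked for over the whole table, by a rule set after the values were seen: a mean of at least 5 CPM, scrambled library 4 the lowest of 8, and scrambled library 3 at least 4 times scrambled library 4. The rule does not ask that scrambled library 3 be the highest. It found 44 of the 9287 tested genes at that level, of which 16 were members, 15 belonged to the pathway lists and 13 to neither. The 13 were H2-Q6, H2-T23, Psmb8, Psmb9, Tap1, Fmnl3, Gm2a, Ramp1, Rassf4, Rasa4, Fgd2, Pimreg and Sparc, the last with no count in scrambled library 4 or in knockdown library 3. The first 5 code for class I histocompatibility molecules, immunoproteasome subunits and the peptide transporter, were grouped after they were seen, and had adjusted p values of 0.199 to 0.922 between the groups by edgeR. Of the other 8, Pimreg and Rassf4 were higher in the knockdown (log2 fold changes 3.17 and 3.44, adjusted p = 0.00293 and 0.0422), and the rest did not pass. Tap1 was at 63.2, 79.0, 162 and 27.9 CPM in scrambled libraries 1 to 4 and at 49.6 to 92.2 CPM in the knockdown libraries. Psmb9 was at 9.60, 16.4, 44.6 and 6.38 CPM in the scrambled and 11.1 to 38.0 CPM in the knockdown libraries.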
